A study of Mus musculus with 24 samples.

Results

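Cholesterol and fatty acid synthesis were followed through 33 genes of the 55291 gene symbols in the deposited table, chosen as the rows whose gene name is one of a set of pathway genes. Of these, 22 belong to the sterol pathway (7 of the mevalonate arm, 3 of squalene and lanosterol formation, 8 that turn lanosterol into cholesterol, and 4 for regulation and transport). The other 11 make or modify fatty acids (the regulator Srebf1, 3 enzymes that build acyl chains, 4 desaturases and 3 elongases). The study measured bulk RNA-seq of dendritic cells grown from the bone marrow of inbred mice, to ask how natural genetic variation bears on the response to endotoxin. Bone marrow of strains B6, C57 and PWD was cultured for 7 days with 20 ng/ml GM-CSF, a growth factor that turns marrow cells into dendritic-like and macrophage-like cells. The cells were either left untreated (B6_Untreated, C57_Untreated, PWD_Untreated) or given lipopolysaccharide (LPS) of E. coli at 10 ng/ml for 6 hours (B6_LPS, C57_LPS, PWD_LPS). Each group has 4 libraries, 24 in all, from independent cultures of individual mice. The PWD strain was bred from wild mice of the subspecies Mus musculus musculus. Neither the difference of C57 from B6 nor the age of the mice is given in the sources used here.

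Cells make cholesterol from acetyl-CoA through mevalonate, isoprenoid diphosphates, squalene and lanosterol, and they make fatty acids by building palmitate and then elongating and desaturating it. Both pathways are under the sterol regulatory element-binding proteins (SREBPs), membrane-bound transcription factors encoded by Srebf1 and Srebf2. When membrane sterol is low, the escort protein Scap carries them to the Golgi, where proteases free the part that enters the nucleus, and Insig1 holds the complex back when sterol is plentiful. In macrophages and dendritic cells, signals through Toll-like receptors and interferons are known to change sterol synthesis, and the LPS-induced enzyme Ch25h makes an oxysterol that holds SREBPs in the endoplasmic reticulum.

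Promoters of 4 members are printed because these genes mark the main patterns of the results: the mevalonate enzyme Hmgcs1 and the SREBP retention protein Insig1 had deeper falls with LPS in PWD than in B6, the isomerase Idi1 had opposite responses in B6 and PWD, and the fatty acid synthase Fasn fell in all 3 strains. Each window runs from 250 bases before to 50 bases after the RefSeq start, read 5′ to 3′ along the gene, on GRCm38.p6. Hmgcs1 is at chr13:119690101-119690400 on the plus strand, Insig1 at chr5:28071162-28071461 on the plus strand, Idi1 at chr13:8885356-8885655 on the plus strand and Fasn at chr11:120824498-120824797 on the minus strand. Capitals mark matches, on either strand, to TCACNCCAC (a form of the sterol regulatory element), CCAAT (the CCAAT box, ATTGG on the other strand) or CACGTG (an E-box).
Hmgcs1: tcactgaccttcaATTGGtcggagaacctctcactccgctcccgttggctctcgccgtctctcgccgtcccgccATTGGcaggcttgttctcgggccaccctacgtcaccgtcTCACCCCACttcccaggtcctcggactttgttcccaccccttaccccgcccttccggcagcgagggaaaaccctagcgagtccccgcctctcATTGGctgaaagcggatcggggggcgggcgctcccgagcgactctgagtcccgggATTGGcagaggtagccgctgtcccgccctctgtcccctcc
Insig1: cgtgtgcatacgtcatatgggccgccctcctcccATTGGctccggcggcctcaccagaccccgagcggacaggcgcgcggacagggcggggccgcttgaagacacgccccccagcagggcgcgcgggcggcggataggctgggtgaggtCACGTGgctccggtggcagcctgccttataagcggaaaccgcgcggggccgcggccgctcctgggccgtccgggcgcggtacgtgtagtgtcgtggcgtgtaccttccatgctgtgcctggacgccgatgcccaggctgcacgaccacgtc
Idi1: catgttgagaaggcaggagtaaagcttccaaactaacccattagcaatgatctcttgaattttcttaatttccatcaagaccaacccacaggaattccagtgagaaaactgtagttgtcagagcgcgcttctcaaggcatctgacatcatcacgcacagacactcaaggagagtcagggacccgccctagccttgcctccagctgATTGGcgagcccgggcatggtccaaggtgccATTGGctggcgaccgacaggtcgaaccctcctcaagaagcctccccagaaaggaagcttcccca
Fasn: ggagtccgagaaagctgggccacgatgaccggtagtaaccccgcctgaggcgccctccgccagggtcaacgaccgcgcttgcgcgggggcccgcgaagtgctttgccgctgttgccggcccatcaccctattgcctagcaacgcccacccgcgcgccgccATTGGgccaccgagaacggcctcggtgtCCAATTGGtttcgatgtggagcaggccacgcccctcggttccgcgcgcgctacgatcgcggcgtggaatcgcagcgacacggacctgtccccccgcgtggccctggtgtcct

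The sterol element stood in the Hmgcs1 window alone among the 26 members that the promoter table holds, 137 bases before the start. Of the 27025 genes held there, 1.44% have a match in any of their promoters. CCAAT was found in 21 of the 26 members (16 of 18 sterol genes and 5 of 8 fatty acid genes), against 41.1% of all genes held there. The Hmgcs1 window holds 4 CCAAT matches, Idi1 2, Insig1 1 and Fasn 3, of which a pair overlaps. CACGTG was found in 6 members (Dhcr7, Elovl5, Hsd17b7, Insig1, Sc5d and Scap), 5 of them sterol genes, against 8.09% of all genes held there. The motifs share no letters with one another in these windows, and a match describes the letters only. Stard4, Scd1, Fads1, Scd2, Sqle, Fdps and Fdft1 were not analysed here for motifs.

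Levels are given as TPM, which scale reads to the length of each gene and to a fixed total in each library. All 33 members passed the filter for testing (1 TPM or more in at least 4 libraries), and 31 stood at 1 TPM or more in every library, the exceptions being Dhcr7 and Elovl6. A difference was called at a Benjamini-Hochberg adjusted p under 0.05 in limma over the 13246 genes tested, and differences are on the log2(TPM + 1) scale. The label was checked against markers: the dendritic cell gene Itgax had group means of 238 to 340.3 TPM and Zbtb46 of 6.26 to 15.3 TPM, but Flt3 stayed under 1 TPM in every group, and 10 macrophage and monocyte markers summed to 4265 to 13769.6 TPM. Most of that sum was Lyz2, with group means of 3686 to 11435 TPM, while C1qa had 3.17 to 209 TPM. Adipocytes are another source of lipid synthesis RNA. Of 7 adipocyte and stromal markers, Lep was listed at 0 and Adipoq and Plin1 were near 0. Fabp4, which macrophages also express, had group means of 11.3 to 115 TPM, and the stromal collagen gene Col1a1 0.853 to 4.03 TPM. Structural RNA took 28.8% to 44.2% of TPM and stood apart by replicate number in PWD_Untreated (41.9% and 40.3% in replicates 1 and 2, 29.3% and 28.8% in 3 and 4) and in C57_LPS (39.9% and 41.2% against 31.6% and 33.4%). Xist RNA was near 0 in replicates 1 and 2 and present in 3 and 4 of every group, so replicate numbers also part the mice by sex.

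Summed over the 22 sterol genes, untreated PWD cells had the highest TPM, and after LPS the means of the 3 strains were close together, which rested on Idi1, an isomerase that rose in B6. B6_Untreated libraries stood at 542, 456, 494 and 561 TPM and B6_LPS libraries at 347, 281, 299 and 281 TPM. In C57 the sum was 564, 539, 552 and 561 TPM untreated and 288, 288, 329.9 and 319 TPM after LPS. PWD went from 803, 819, 849 and 1000.2 TPM to 309, 310.1, 305 and 301 TPM. On the TPM scale every untreated library was above every LPS library of its strain, and every PWD_Untreated library was above all libraries of the other groups. The means after LPS, 302 ± 31.4 TPM in B6, 306 ± 21.4 TPM in C57 and 306 ± 4.03 TPM in PWD (SD, n = 4 each), differed by less than their spread. Without Idi1 they were 222 ± 21.0, 277 ± 23.4 and 288 ± 3.86 TPM, with the B6 libraries (206 to 251 TPM) below those of C57 (257 to 304 TPM) and PWD (283 to 291 TPM). The closeness also depended on the scale: with each library divided by its median-of-ratios factor, so that the typical gene is equal in all, the LPS means were 413, 319 and 331, highest in B6, and the untreated means 476, 445 and 719.6, highest in PWD. On that scale the B6 libraries overlapped between conditions, at 423 to 523 untreated and 394 to 462 after LPS.

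The fatty acid sum kept the strains apart. B6 went from 369, 325, 314 and 359.7 TPM to 152, 142, 155 and 154 TPM, and C57 from 428, 394, 404 and 414 TPM to 197, 187, 253 and 231 TPM. PWD went from 547, 546, 605 and 644 TPM to 301, 300.4, 273 and 282 TPM. The strains kept the order PWD, C57, B6 in both conditions, with no overlap between strains of the same condition on the TPM scale. The median-of-ratios means had the same order (317, 329 and 485 in B6, C57 and PWD untreated, 206, 225 and 312 after LPS), but there B6 and C57 libraries overlapped in both conditions (302 to 332 and 316 to 338 untreated, 199 to 218 and 216 to 240.2 after LPS). The LPS mean was 2.27-fold below the untreated mean in B6, 1.89-fold in C57 and 2.03-fold in PWD, whereas for the sterol sum these ratios were 1.70, 1.81 and 2.83.

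The ratio of the sterol sum to the fatty acid sum therefore parted the strains after LPS, though B6 from C57 only with Idi1 counted. It was 1.5 ± 0.0808 in B6_Untreated, 1.35 ± 0.0226 in C57_Untreated and 1.48 ± 0.0621 in PWD_Untreated (SD, n = 4 each). After LPS it was 2.01 ± 0.199 in B6, 1.42 ± 0.102 in C57 and 1.06 ± 0.0431 in PWD. In B6 all 4 LPS libraries were above all untreated ones, in PWD all 4 were below, and in C57 the groups overlapped. Much of the B6 rise came from Idi1: without it the ratio was 1.35 ± 0.0718 untreated and 1.47 ± 0.134 after LPS in B6, with overlapping libraries, 1.26 ± 0.0198 and 1.29 ± 0.0736 in C57, and 1.40 ± 0.0544 and 0.998 ± 0.0425 in PWD. Without Idi1 the libraries of B6_LPS (1.34 to 1.66) and C57_LPS (1.20 to 1.37) overlapped too, and those of PWD_LPS (0.964 to 1.06) were below both. These sums and ratios are descriptions with no test. A ratio within a library does not move with a factor shared by all its genes, while the sums do: with median-of-ratios scaling the log2 change of the sterol sum went from -0.76 to -0.20 in B6, from -0.85 to -0.48 in C57 and from -1.50 to -1.12 in PWD. In bulk RNA, fewer cells of a type and less RNA per cell cannot be told apart.

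**Figure D1:**
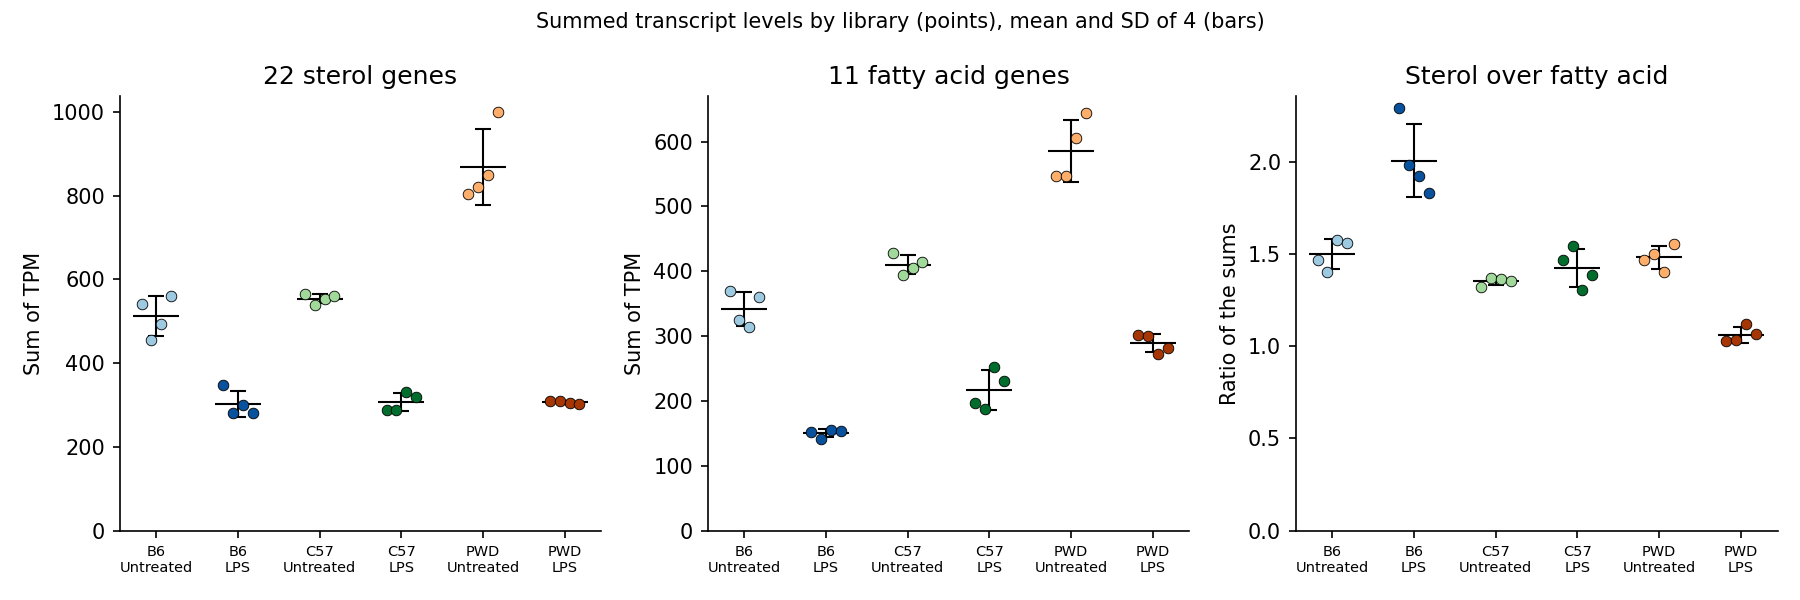
Sum of TPM over the 22 sterol genes (left), over the 11 fatty acid genes (middle) and their ratio (right) in each library, by strain and treatment; points are libraries, bars the mean and SD of 4. The sterol sums of the LPS groups have means of 302, 306 and 306 TPM, though 222, 277 and 288 TPM without Idi1 and 413, 319 and 331 after median-of-ratios scaling, and the ratio after LPS is highest in B6 and lowest in PWD.

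LPS lowered nearly all of both pathways in each strain. In B6, 20 of 22 sterol genes and all 11 fatty acid genes fell, where 59.7% of all genes tested were called lower, and 2 sterol genes rose, where 11.9% were called higher. In C57, 21 sterol genes and 11 fatty acid genes fell and none rose (52.2% of all genes called lower, 10.4% higher). In PWD all 22 and all 11 fell (52.4% lower, 11.1% higher). Most expressed genes were called lower on the TPM scale, so these counts alone say little about the members, and sizes are given beside them. The median log2 change was -0.98 for sterol and -1.27 for fatty acid genes in B6 against -0.43 over all genes. It was -0.78 and -0.99 in C57 against -0.32, and -1.54 and -1.24 in PWD against -0.32. Fatty acid genes had the lower median in B6 and C57, and sterol genes in PWD.

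With median-of-ratios scaling, which moved the median of all genes to between -0.02 and 0.00, the calls over all genes went from 1575 higher and 7905 lower to 4104 and 4031 in B6, from 1371 and 6908 to 3348 and 3403 in C57, and from 1464 and 6946 to 3564 and 3468 in PWD. The members did not even out in this way: 19 sterol genes were still called lower in each strain, and 10, 9 and 10 fatty acid genes in B6, C57 and PWD. Markers of cell division moved with LPS too: 12 such genes summed to 242 to 313 TPM in B6_Untreated and 106 to 116 TPM in B6_LPS, to between 490.3 and 555 and 271 to 377 TPM in C57, and to 414 to 527 and 289.7 to 349.7 TPM in PWD (11, 11 and 10 of the 12 fell). The 10 macrophage and monocyte markers summed after LPS to 5354 to 6932 TPM in B6, 7408 to 10409.9 TPM in C57 and 4265 to 4606 TPM in PWD (6, 5 and 7 of the 10 fell and 2 rose in each strain), against untreated sums of 8251 to 9714, 12416 to 13769.6 and 4888 to 7037 TPM. Lyz2 made most of these sums, with group means after LPS of 4715 TPM in B6, 7783 TPM in C57 and 3686 TPM in PWD. Neutrophil markers summed to 1532 to 1773 TPM untreated and 1051 to 1313 TPM after LPS in B6, 2301 to 3915 and 1437 to 2779 TPM in C57, and 1715 to 2883 and 760.1 to 1195 TPM in PWD (4, 4 and 5 of the 10 fell, and 1 rose in B6). Of 11 dendritic cell markers tested, 3, 4 and 2 fell and 2, 2 and 3 rose. The part of cell division and of these cells in the fall of lipid synthesis genes was not tested.

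In the mevalonate arm, Hmgcs1, which condenses acetyl-CoA with acetoacetyl-CoA, fell in each strain. Hmgcs1 stood at 90.2, 85.6, 81.7 and 97.2 TPM in PWD_Untreated and at 25.1, 24.1, 25.7 and 23.7 TPM in PWD_LPS. B6 went from 57.01, 41.3, 53.7 and 56.6 TPM to 32.2, 25.1, 27.6 and 25.6 TPM, and C57 from 54.5, 54.3, 60.9 and 54.1 TPM to 32.0, 35.8, 38.8 and 37.4 TPM. Untreated and LPS libraries were apart in all 3 strains, and the PWD_LPS libraries, highest before treatment, ended among the lowest. The log2 change was -0.89 (SE 0.10) in B6, -0.62 (SE 0.10) in C57 and -1.80 (SE 0.10) in PWD, with limma adjusted p of 1.0e-08, 5.9e-06 and 1.9e-14. Acat2, the thiolase that supplies acetoacetyl-CoA, changed by -1.33, -1.06 and -1.99 in the same order. Mvd, which makes isopentenyl diphosphate, changed by -1.57, -0.95 and -1.30, the mevalonate kinase Mvk by -0.89, -0.70 and -0.80, and the farnesyl diphosphate synthase Fdps by -0.94, -0.77 and -1.33, all called lower.

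The mevalonate arm also held both exceptions. Idi1, the isomerase that makes dimethylallyl diphosphate (chr13:8885501-8892451 on mm10, plus strand), stood at 53.6, 47.3, 49.7 and 60.2 TPM in B6_Untreated and rose to 96.0, 72.2, 76.6 and 75.6 TPM in B6_LPS. In C57 the libraries held 35.0, 38.0, 32.6 and 37.3 TPM untreated and 30.02, 31.3, 26.3 and 28.5 TPM after LPS. In PWD they went from 43.0, 46.7, 48.1 and 63.6 TPM to 18.7, 18.9, 17.3 and 18.5 TPM. All 4 B6 libraries after LPS were above all B6 libraries before it, and in PWD the reverse held. The log2 changes were 0.59 (SE 0.11, limma adjusted p = 2.0e-05) in B6, -0.29 (0.11, 0.0202) in C57 and -1.39 (0.11, 2.1e-11) in PWD. The C57 call was lost without C57_LPS replicate 3, C57_Untreated replicate 2 or C57_Untreated replicate 4 (-0.24 to -0.27, limma adjusted p 0.0512 to 0.0645), and median-of-ratios scaling turned it to 0.076. Pmvk, the kinase between Mvk and Mvd, rose by 0.40 in B6 with overlapping libraries (11.1, 8.96, 11.5 and 12.6 TPM untreated, 15.1, 17.6, 11.8 and 15.3 TPM after LPS), had -0.17 in C57 with no call, and fell by 0.54 in PWD.

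The 3 steps from farnesyl diphosphate to lanosterol fell in every strain. Sqle, the squalene epoxidase and a flux-controlling enzyme of the pathway, stood at 56.9, 54.8, 59.4 and 70.8 TPM in PWD_Untreated and 14.3, 13.3, 12.6 and 12.5 TPM in PWD_LPS. In B6 it stood at 26.3, 19.8, 26.4 and 27.8 TPM and 11.01, 8.16, 8.32 and 6.35 TPM, and in C57 at 33.5, 28.7, 33.4 and 32.5 TPM and 13.0, 12.1, 14.7 and 13.1 TPM. No LPS library reached an untreated one of its strain. The log2 change of Sqle was -1.47 in B6, -1.22 in C57 and -2.11 in PWD (SE 0.12 each, limma adjusted p at most 4.8e-09). Fdft1, the squalene synthase, changed by -0.87, -0.76 and -1.74, and the lanosterol synthase Lss by -1.14, -1.23 and -1.81.

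Past lanosterol, Dhcr7, the reductase of the final step in one branch, had the largest sterol fall in B6 and one of the 3 largest in the other strains. Dhcr7 (chr7:143823145-143848410, plus strand) stood at 5.01, 6.36, 5.26 and 4.52 TPM in B6_Untreated and 0.613, 0.600, 0.611 and 0.573 TPM in B6_LPS. C57 had 17.7, 15.1, 15.9 and 15.7 TPM and 4.65, 4.11, 5.71 and 4.73 TPM, and PWD 44.5, 47.0, 42.9 and 51.2 TPM and 11.5, 12.1, 8.09 and 9.45 TPM. The strains kept the order PWD, C57, B6 in both conditions. Its log2 changes were -1.97, -1.57 and -2.08, and with a pseudocount of 0.1 TPM, which shrinks low levels less, -2.94, -1.73 and -2.18. The methylsterol oxidase Msmo1 changed by -1.27, -1.18 and -2.11, the lanosterol demethylase Cyp51 by -1.35, -0.98 and -1.81, and the desaturase Sc5d by -1.27, -1.38 and -1.76. Nsdhl and Hsd17b7, which with Msmo1 take off methyl groups, changed by -0.9995, -0.74 and -1.32 and by -0.77, -0.80 and -1.55. The isomerase Ebp (-1.06, -0.66 and -0.70) and the sterol reductase Tm7sf2 (-0.97, -0.73 and -0.47) also fell, and the call of Tm7sf2 in PWD was lost without PWD_LPS replicate 1 (-0.34, limma adjusted p = 0.0741).

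Regulators and transport genes fell as well. Stard4, a carrier of sterol between membranes, was among the largest falls in B6 and C57: it stood at 14.3, 10.9, 11.2 and 13.1 TPM in B6_Untreated against 4.47, 3.21, 2.65 and 3.08 TPM in B6_LPS, and at 16.4, 15.3, 15.9 and 15.4 TPM in C57_Untreated against 3.08, 4.31, 4.36 and 5.22 TPM in C57_LPS. In PWD the values were 25.5, 26.2, 26.4 and 29.8 TPM and 7.57, 6.76, 7.15 and 7.29 TPM. Groups were apart in each strain, and the log2 changes lay close together at -1.63, -1.69 and -1.77. Insig1, itself an SREBP target that restrains SREBP release, changed by -0.80, -1.02 and -1.53. The transcription factor gene Srebf2 fell by 0.84, 0.58 and 0.78, and the escort gene Scap by 0.76, 0.50 and 0.50.

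Among fatty acid genes the desaturase Scd2, which puts a double bond into saturated acyl chains, had the largest fall in every strain on the log2(TPM + 1) scale. The rank holds for that scale, since with a pseudocount of 0.1 TPM the low-level gene Elovl6 had -2.61 in PWD. Scd2 (chr19:44293674-44306864, plus strand) stood at 47.1, 44.0, 40.8 and 44.9 TPM in B6_Untreated and 4.20, 3.36, 4.43 and 3.297 TPM in B6_LPS. C57 had 62.9, 59.6, 63.6 and 56.7 TPM and 11.1, 10.5, 15.4 and 11.1 TPM, and PWD 90.8, 85.9, 89.8 and 99.2 TPM and 19.0, 16.8, 14.8 and 15.0 TPM. No LPS library came near an untreated one, and the lowest group was B6_LPS. The log2 changes were -3.23 (SE 0.11), -2.26 (SE 0.11) and -2.41 (SE 0.11), with limma adjusted p of 8.1e-19, 3.1e-15 and 2.3e-16. Scd2 held 12.5% to 16.6% of the fatty acid sum untreated and 2.15% to 6.31% after LPS. Its neighbour Scd1 (chr19:44394455-44407879, minus strand), of the same activity, changed by -1.27, -0.59 and -1.26; reads of close paralogs can be split by counting, so these values carry that limit.

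Fasn, the synthase that builds palmitate, was among the 3 largest falls of fatty acid genes in each strain on the log2(TPM + 1) scale. It stood at 25.8, 20.8, 22.3 and 26.8 TPM in B6_Untreated and 4.91, 4.56, 4.60 and 4.31 TPM in B6_LPS, at 25.9, 26.4, 25.2 and 28.9 TPM and 8.93, 9.10, 10.7 and 9.94 TPM in C57, and at 38.0, 35.6, 41.9 and 42.1 TPM and 11.4, 9.45, 8.29 and 8.59 TPM in PWD. The groups were apart in each strain, with log2 changes of -2.15, -1.37 and -1.96. Acaca, which makes the malonyl-CoA that Fasn uses, changed by -1.17, -0.78 and -0.68, and Acly, which makes cytosolic acetyl-CoA from citrate for both pathways, by -0.53, -0.62 and -0.79, though in B6 median-of-ratios scaling turned Acly to 0.029. The regulator gene Srebf1 changed by -1.14, -0.45 and -0.67. The elongases Elovl5 (-1.40, -1.02 and -1.29), Elovl1 (-0.78, -0.53 and -0.38) and Elovl6 (-0.87, -0.99 and -1.24) all fell, and those of Elovl6, a gene at 1.43 TPM in B6_Untreated and 0.331 TPM in B6_LPS, became -1.93, -1.94 and -2.61 with a pseudocount of 0.1 TPM.

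Fads1 and Fads2 put double bonds into polyunsaturated acyl chains and lie close together on chromosome 19 (Fads2 at chr19:10062765-10101746, minus strand). Fads1 (chr19:10182888-10196877, plus strand) went from 15.3, 14.8, 14.7 and 17.0 TPM to 2.84, 2.10, 2.71 and 2.76 TPM in B6 and from 28.7, 25.9, 25.6 and 25.9 TPM to 8.02, 6.94, 9.32 and 9.82 TPM in C57. In PWD it went from 35.3, 37.2, 41.5 and 41.4 TPM to 27.3, 24.8, 20.8 and 23.8 TPM. After LPS all PWD libraries were above all untreated B6 libraries. Log2 changes of Fads1 were -2.19, -1.54 and -0.66, and those of Fads2 were -1.45, -1.14 and -1.503.

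**Figure D2:**
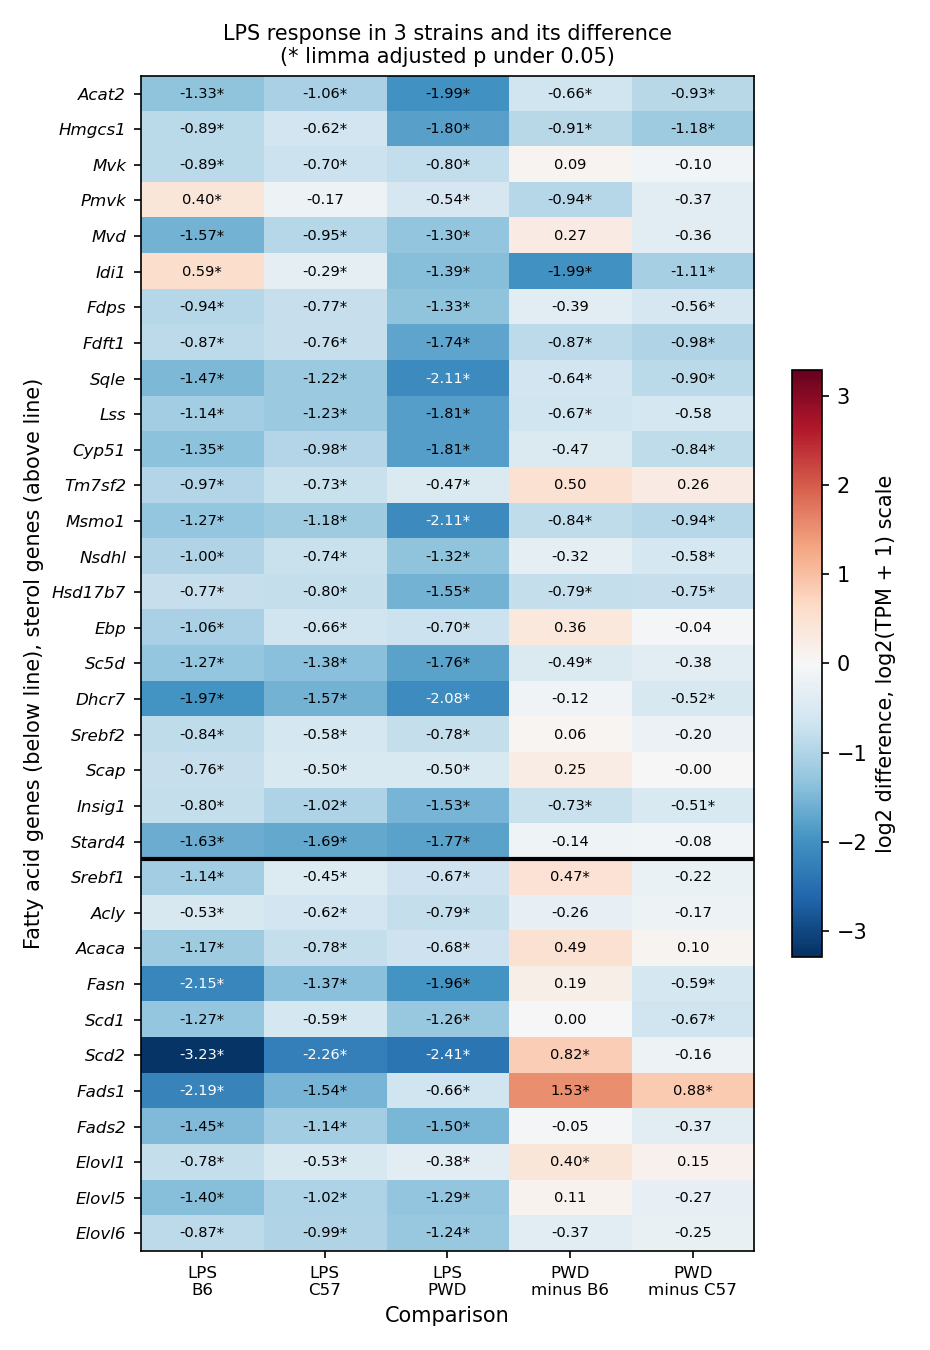
Heat map of log2 differences on the log2(TPM + 1) scale for the 33 members (rows, sterol genes above the line, fatty acid genes below): LPS against untreated in B6, C57 and PWD, then the response of PWD minus that of B6 and of C57, with an asterisk where the limma adjusted p was under 0.05. Idi1 and Pmvk are above 0 in B6, and Fads1 has the highest positive difference of responses; with median-of-ratios scaling Acly in B6 and Idi1 in C57 are at 0.029 and 0.076.

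How far the response differed between strains was tested as the difference of the LPS changes, where a negative value means a deeper fall in the first strain. PWD minus B6 was lower for 11 of 22 sterol genes and higher for none (7.50% and 16.0% of all genes), and higher for 4 of 11 fatty acid genes and lower for none. PWD minus C57 was lower for 12 sterol genes and higher for none (5.99% and 5.41% of all genes), while fatty acid genes split, 2 lower and 1 higher. The class medians were -0.48 for sterol and 0.19 for fatty acid genes in PWD minus B6, against 0.14 over all genes, and -0.54 and -0.22 in PWD minus C57, against 0.00. These comparisons share the PWD libraries, so they are not separate evidence.

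By pathway step, PWD minus B6 was lower for 4 of 7 genes of the mevalonate arm, all 3 of squalene and lanosterol formation, 3 of 8 after lanosterol and 1 of 4 for regulation and transport. Idi1 had the largest in PWD minus B6, -1.99 (SE 0.15, limma adjusted p = 2.1e-10), and differed by -1.11 in PWD minus C57. Hmgcs1 differed by -0.91 (SE 0.14, limma adjusted p = 1.9e-05) and -1.18, Fdft1 by -0.87 and -0.98, Acat2 by -0.66 and -0.93, and Msmo1 by -0.84 and -0.94. Sqle (-0.64 and -0.90), Hsd17b7 (-0.79 and -0.75) and Insig1 (-0.73 and -0.51) were also lower in both. The response of Srebf2 itself was not called different, at 0.06 and -0.20, nor were those of Scap (0.25 and -0.00), Stard4 (-0.14 and -0.08) or Mvk (0.09 and -0.10), which does not show that they were alike.

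In fatty acid synthesis Fads1 went the other way: its fall was shallower in PWD by 1.53 than in B6 (SE 0.15, limma adjusted p = 1.5e-08) and by 0.88 than in C57. Scd2 was also shallower in PWD than in B6, by 0.82, and in C57 than in B6, by 0.98. Between C57 and B6, 5 fatty acid genes were higher (10.9% of all genes), led by Scd2, Fasn (0.78) and Srebf1 (0.69). Of the sterol genes there, 2 were lower (3.39% of all genes), Idi1 (-0.88) and Pmvk (-0.57), and 1 was higher, Mvd (0.62). Of the 12 cell division genes, 7 were higher and 1 lower in C57 minus B6 (median 0.72), 8 higher and none lower in PWD minus B6 (0.98), and 1 higher and 1 lower in PWD minus C57 (0.17); their part in these differences was not tested. With a pseudocount of 0.1 TPM the PWD minus B6 value of Dhcr7, -0.12 and not called, turned to 0.76 (limma adjusted p = 0.003), and that of C57 minus B6 went from 0.40, not called, to 1.20 (limma adjusted p = 5.2e-05); its B6_LPS libraries all stood below 1 TPM.

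Replicate numbers also part the sex of the mice and, in PWD_Untreated and C57_LPS, the structural RNA share. Numbers 1 and 2 and numbers 3 and 4 were also fitted apart, with 2 libraries per group. Sterol genes were called lower in both, in differing counts. PWD minus B6 was lower for 11 sterol genes in numbers 1 and 2 and for 6 in numbers 3 and 4, where 3.87% and 10.5% of all genes were lower. PWD minus C57 was lower for 9 and 15 sterol genes, where 2.19% and 15.9% of all genes were lower, so that count rose with the share. With median-of-ratios scaling the counts of lower sterol genes over all libraries were 14 in PWD minus B6 and 15 in PWD minus C57. All genes went there from 2117 higher and 994 lower to 1969 and 2219 in PWD minus B6, from 717 and 793 to 1415 and 1420 in PWD minus C57, and from 1447 and 449 to 1447 and 1891 in C57 minus B6. The fatty acid calls moved with those of all genes. In PWD minus B6 6 fatty acid genes were higher in numbers 1 and 2 and 1 in numbers 3 and 4, where 29.5% and 6.11% of all genes were higher. In PWD minus C57 0 and 5 were lower, beside the 2.19% and 15.9% above. Over all libraries that count of 2, Fasn and Scd1, was 1 without any of C57_LPS 3 and 4, C57_Untreated 1, 3 and 4, PWD_LPS 1 and 3 and PWD_Untreated 1 and 4.

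Before LPS, both pathways stood higher in PWD than in the other strains. Whether PWD reads aligned to the build mm10 as well as those of B6 and C57 is not known. The part of alignment in strain differences of level was not tested. Against B6, 18 of 22 sterol genes and 9 of 11 fatty acid genes were higher (37.2% of all genes), and 1 sterol gene was lower (19.7% of all genes). Over all genes median-of-ratios scaling moved that split from 4930 higher and 2614 lower to 4152 and 4007. Against C57, 18 and 8 were higher and none lower (20.1% and 26.2% of all genes). Median log2 differences were 0.79 and 0.73 against B6, where all genes had 0.14, and 0.65 and 0.53 against C57, where all genes had -0.04. Dhcr7 differed most among sterol genes, by 2.92 against B6 (SE 0.11, limma adjusted p = 3.3e-18) and 1.47 against C57, from the levels given above.

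Mvd stood at 62.1, 63.8, 62.7 and 76.3 TPM in PWD_Untreated, 19.2, 16.5, 19.4 and 22.4 TPM in B6_Untreated and 28.1, 25.8, 27.3 and 26.3 TPM in C57_Untreated, with no overlap of PWD and either strain. Its differences were 1.72 against B6 and 1.27 against C57. Acat2 was higher against B6 by 1.41 and against C57 by 1.05, and Nsdhl by 1.39 and 1.28. Nsdhl stood at 20.4, 19.9, 22.7 and 26.9 TPM in PWD_Untreated, where B6_Untreated held 9.003, 6.80, 7.08 and 8.93 TPM and C57_Untreated 8.96, 8.26, 9.26 and 8.01 TPM. Srebf2 was not called in either comparison (-0.11 and 0.06), nor was Idi1 against B6 (-0.07). The lower sterol gene against B6 was Tm7sf2, at -0.38, whose limma adjusted p of 0.045 became 0.0507 with the replicate number as a block. Its adjusted p was also above 0.05 when any of 8 libraries was left out (-0.35 to -0.40): B6_Untreated 1, 2 or 3, PWD_LPS 4, or PWD_Untreated 1, 2, 3 or 4.

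Scd1 had the largest PWD difference among fatty acid genes. It stood at 45.4, 39.7, 42.6 and 50.5 TPM in PWD_Untreated, at 10.8, 8.79, 7.54 and 8.85 TPM in B6_Untreated and at 9.06, 10.4, 8.72 and 9.30 TPM in C57_Untreated. B6 and C57 overlapped, and every PWD library was several times above both. The differences were 2.19 (SE 0.15, limma adjusted p = 7.5e-13) and 2.13 (SE 0.15, limma adjusted p = 1.8e-12). Fads2 stood at 25.8, 25.3, 29.3 and 33.5 TPM in PWD_Untreated, 6.44, 5.12, 5.91 and 7.35 TPM in B6_Untreated and 11.6, 11.1, 9.12 and 9.91 TPM in C57_Untreated, with differences of 2.03 and 1.36 for PWD. The neighbouring Fads1 differed by 1.27 and 0.53, Scd2 by 1.03 and 0.58, and Fasn by 0.70 and 0.55. Srebf1 (0.24, -0.05) and Elovl6 (0.28, 0.04) were not called.

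Levels of cell type and cell division markers moved with strain as well. Of the 12 cell division genes, 11 were higher and none lower in PWD_Untreated than in B6_Untreated. Of the 10 macrophage and monocyte markers, 9 were lower and 1 higher in PWD_Untreated than in B6_Untreated (median -1.04) and than in C57_Untreated (median -1.25). Dendritic cell markers summed to 9044 to 11992 TPM in B6_Untreated, 4025 to 5007 TPM in C57_Untreated and 4049.6 to 6782 TPM in PWD_Untreated. In the same order, neutrophil markers summed to 1532 to 1773, 2301 to 3915 and 1715 to 2883 TPM, and those of eosinophils, basophils and mast cells to 15.3 to 21.1, 17.8 to 34.9 and 145 to 225 TPM. Of the latter, 7 were tested: 4 were higher and 1 lower in PWD_Untreated than in B6_Untreated, and 4 higher and 3 lower than in C57_Untreated. The eosinophil gene Epx had group means of 26.6 TPM in PWD_Untreated and 0.179 TPM in B6_Untreated, and the mast cell gene Kit 0.927 and 5.69 TPM. The 7 adipocyte and stromal markers summed to 10.3 to 16.0 TPM in B6_Untreated, 35.8 to 49.7 TPM in C57_Untreated and 77.0 to 102 TPM in PWD_Untreated. Most came from Fabp4, which macrophages also express, and Lep was at 0 in every library. The 3 that passed the filter were higher in PWD_Untreated than in B6_Untreated: Fabp4 (group means of 83.3 and 11.3 TPM), the stromal collagen gene Col1a1 (4.03 and 1.39 TPM) and the pericyte receptor gene Pdgfrb (0.876 and 0.167 TPM). A filter on levels favours markers that are high in some group, so this count is partly set by it. The collagen gene Col3a1, which was not tested, had 0.238 TPM in PWD_Untreated and 0.281 TPM in B6_Untreated. The part of these cell types in the strain differences of lipid synthesis genes was not tested.

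**Figure D3:**
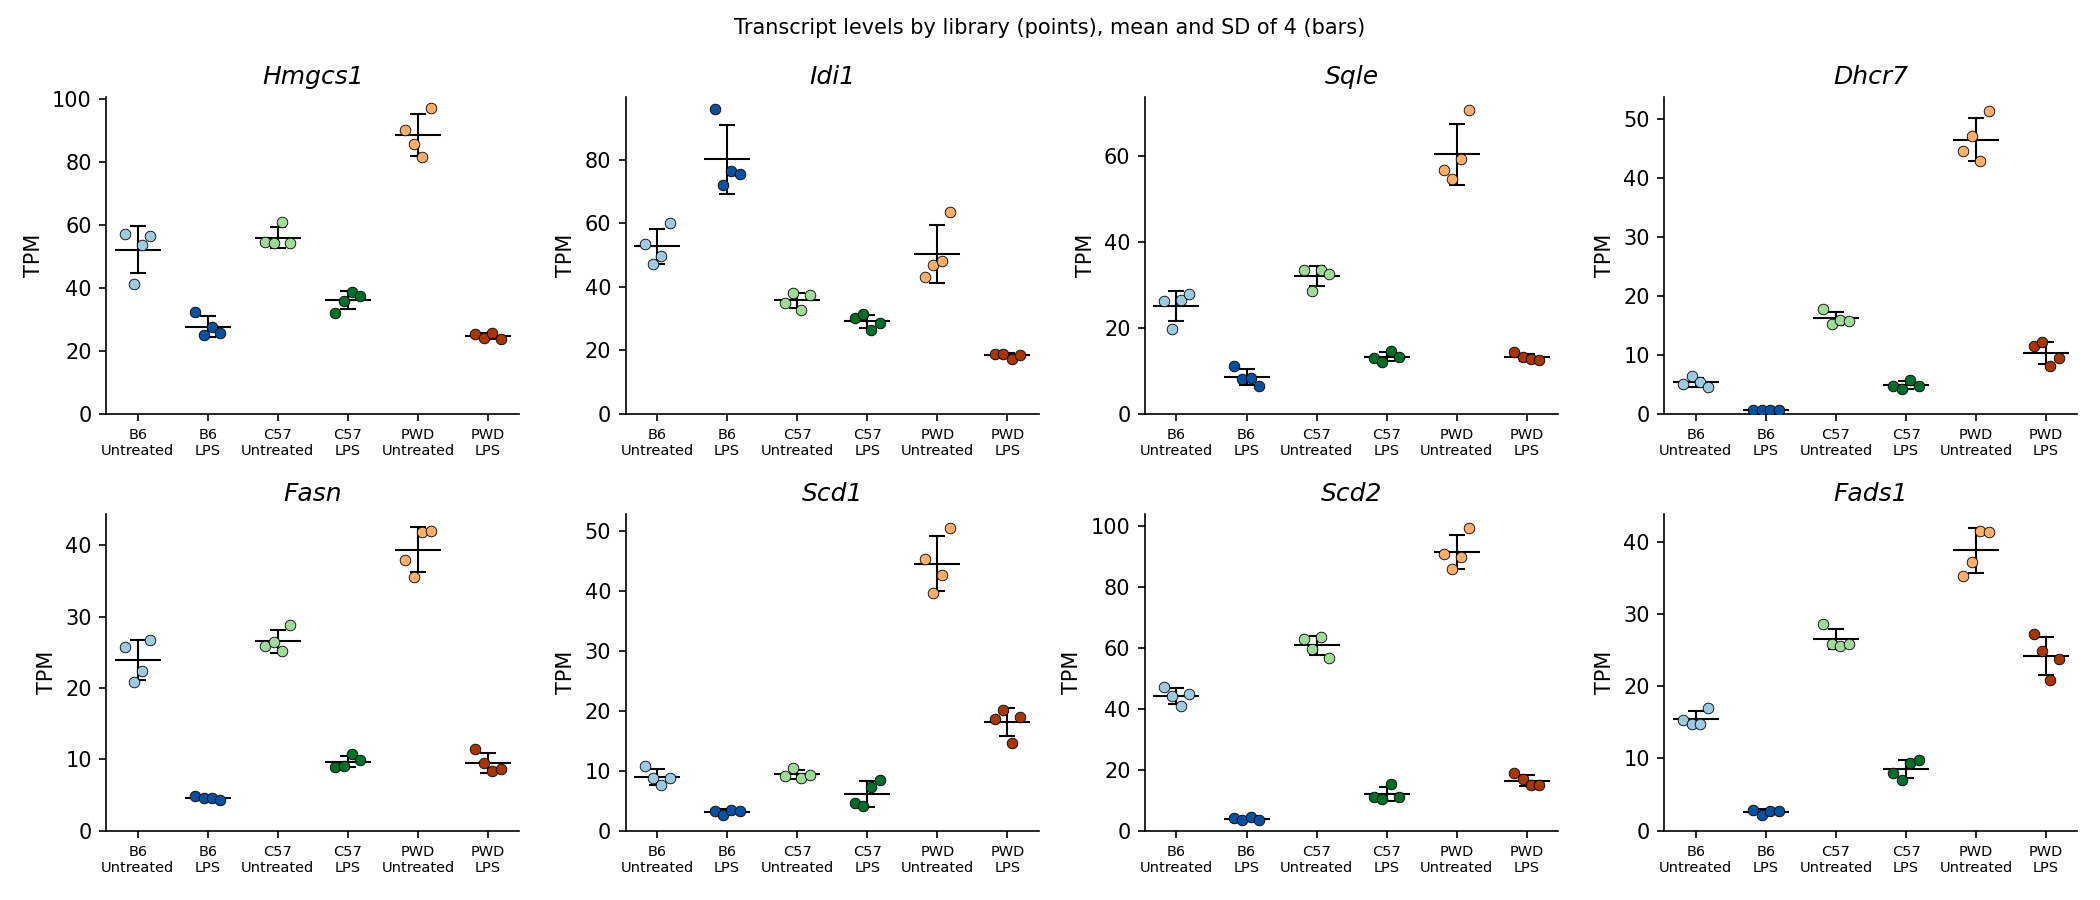
TPM of 8 members in each library, by strain and treatment, with the mean and SD of 4 libraries. Idi1 is higher after LPS in B6 and lower in PWD, Scd1 stands highest in PWD in both conditions, and Fads1 in PWD_LPS is above Fads1 in B6_Untreated.

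After LPS the sterol genes of PWD stood closer to those of the other strains than before it, by their medians, while the fatty acid genes stayed higher. Against B6_LPS, 12 sterol genes were higher and 1 lower in PWD_LPS (49.7% and 19.0% of all genes), with a median of 0.31 where all genes had 0.28. With median-of-ratios scaling the sterol split was 9 higher and 6 lower, with quantile normalization 8 and 7, and all genes went from 6580 higher and 2511 lower to 4692 and 4535 with the former. For fatty acid genes 9 were higher and none lower, with a median of 0.89. Under both scalings 9 were higher, but with median-of-ratios scaling Acly was called lower (-0.20, limma adjusted p = 0.0082). Against C57_LPS, 8 sterol genes were higher and 4 lower (24.4% and 29.8% of all genes), and 7 fatty acid genes were higher and 1 lower. Markers differed here too: in PWD_LPS against B6_LPS all 12 cell division genes were higher (median 1.44), 8 of 11 dendritic cell markers were lower and 2 higher, and 7 of 10 macrophage and monocyte markers were lower and 1 higher. Against C57_LPS these counts were 3 higher and 5 lower, 6 higher and 4 lower, and 1 higher and 8 lower, and the part of these cells was not tested.

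The largest differences of PWD_LPS from B6_LPS were Dhcr7 (2.80), Idi1 (-2.06) and Mvd (1.99) among sterol genes and Fads1 (2.80), Scd1 (2.20) and Fads2 (1.98) among fatty acid genes. Idi1 was the single sterol gene called lower in PWD on the TPM scale. Mvd stood at 25.4, 27.8, 26.1 and 25.2 TPM in PWD_LPS, 6.32, 5.44, 5.64 and 5.90 TPM in B6_LPS and 13.2, 11.5, 15.5 and 13.8 TPM in C57_LPS. Scd1 stood at 18.5, 20.0, 14.7 and 18.9 TPM in PWD_LPS, 3.26, 2.59, 3.40 and 3.32 TPM in B6_LPS and 4.52, 4.14, 7.26 and 8.46 TPM in C57_LPS. Both were higher in every PWD library than in any B6 or C57 library after LPS. Against C57_LPS the largest were Dhcr7 (0.95), Mvd (0.91) and Nsdhl (0.70), and Scd1 (1.46), Fads1 (1.41) and Fads2 (1.00). Hmgcs1 (-0.52) and Msmo1 (-0.44) were lower than in C57_LPS.

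Between C57 and B6, fatty acid genes were mostly higher in C57, by more after LPS than untreated, while the direction of the sterol genes depended on the scaling. The fatty acid median was 0.29 untreated, where all genes had 0.17, and 0.93 after LPS, where all genes had 0.29. Untreated, 9 sterol genes were higher and 1 lower in C57 (31.9% and 6.92% of all genes), and 6 fatty acid genes were higher and none lower. The sterol split was 2 higher and 4 lower under both scalings, and without B6_Untreated replicate 2 the count of higher sterol genes was 3. Over all genes median-of-ratios scaling moved the split from 4219 higher and 916 lower to 2717 and 2533. After LPS 14 sterol genes were higher and 2 lower (49.1% and 9.69% of all genes), which became 4 and 6 with median-of-ratios scaling and 2 and 7 with quantile normalization, while fatty acid genes went from 9 higher and none lower to 8 and 1 and to 9 and 1. All genes moved there from 6500 higher and 1283 lower to 3768 and 3802.

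Calls of the larger C57 differences kept their direction under both scalings. Dhcr7 was higher in C57 by 1.45 untreated and 1.85 after LPS, the latter 2.80 with a pseudocount of 0.1 TPM. Idi1 was lower (-0.54 and -1.43), and Lss was higher by 0.55 untreated and Mvd by 1.08 after LPS. Of the fatty acid genes, Fads1 was higher by 0.74 and 1.40, Acaca by 0.64 and 1.04, Fads2 by 0.67 and 0.99 and Scd2 by 0.45 and 1.43. Acaca stood at 13.5, 11.4, 15.9 and 14.6 TPM in C57_LPS, 5.51, 5.05, 7.74 and 6.84 TPM in B6_LPS and 19.0, 24.1, 25.0 and 21.9 TPM in PWD_LPS, so that the 3 strains were apart. All 12 cell division genes were higher in C57_Untreated than in B6_Untreated, and their part was not tested.

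**Figure D4:**
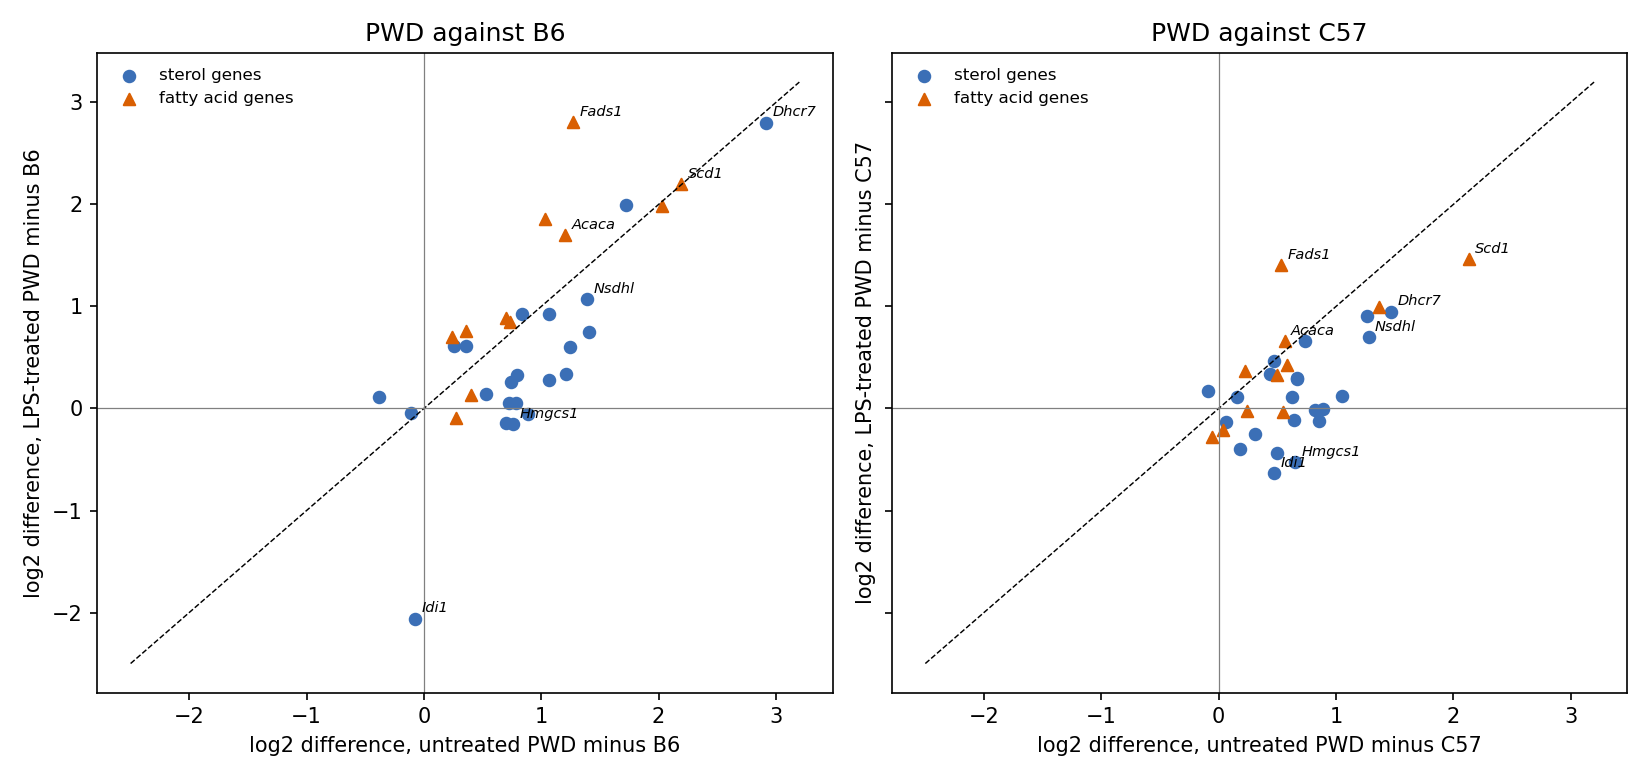
Log2 difference of PWD from B6 (left) and from C57 (right) on the log2(TPM + 1) scale for each member, untreated on the horizontal axis and after LPS on the vertical axis, with a dashed line of equal differences. Most sterol genes lie below the line and Fads1 above it; with median-of-ratios scaling Sc5d, Insig1 and Acly after LPS against B6 are at -0.053, -0.28 and -0.20.

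Pathway genes that are not members gave the setting. Of 10 other enzymes of the sterol and isoprenoid branches, 7 fell with LPS and none rose in each strain, beside 59.7%, 52.2% and 52.4% of all genes called lower in B6, C57 and PWD. Among them was Lbr, a sterol reductase of the nuclear envelope (-1.57 in B6, -1.14 in C57, -1.24 in PWD). Of 6 genes that handle SREBP proteins, 4, 3 and 2 fell and 1 rose in B6, C57 and PWD, with the protease gene Mbtps1 at -0.68, -0.60 and -0.52. Of 9 tested genes of 16 others in fatty acid synthesis, 6, 6 and 5 fell and none rose, with the elongation enzymes Hacd1 (-1.07, -0.82, -0.66) and Hacd3 (-0.93, -0.88, -1.13) among them. Read against those shares of all genes, the counts say little about these lists, and directions in them were not checked under another scaling.

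Genes of the LXR axis, which senses oxysterols and drives cholesterol export, split. Of 10, 4 rose and 3 fell in B6, 3 and 5 in C57, and 3 and 4 in PWD, where 11.9% and 59.7%, 10.4% and 52.2%, and 11.1% and 52.4% of all genes did. Ch25h, the oxysterol-producing enzyme, rose from 14.4 to 148 TPM in B6, from 64.6 to 363 TPM in C57 and from 97.5 to 459.8 TPM in PWD (group means, n = 4). The log2 changes were 3.27, 2.48 and 2.22, and the response differed by -1.05 in PWD minus B6. Abca1, the main cholesterol exporter, rose by 0.36, 0.49 and 1.28, more in PWD than in B6 by 0.92. Soat1, which esterifies cholesterol for storage, fell by 1.37, 0.91 and 0.54. Untreated, Ch25h and the LXR gene Nr1h3 were higher in PWD than in B6, by 2.70 and 2.78, and Apoe, a carrier of exported cholesterol, had -1.92, a lower level. The part of these genes in the members' changes was not tested.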

How the data were processed

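Bulk RNA-seq of 24 libraries in 6 groups was analysed. The values are TPM, deposited by the authors as 1 table of 55401 rows; STAR, edgeR and the build mm10 are named in the submitters' processing notes, and tool versions, counter and annotation are not stated there. Since TPM hold no depth, neither library depth nor the counting error of low levels is known.

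Rows sharing a symbol were summed (55291 symbols). Values were taken as log2(TPM + 1), and the 13246 genes that reached 1 TPM in 4 or more libraries were fitted with limma 3.58.1 (R 4.3.3), with 6 group means over all libraries (18 residual degrees of freedom), empirical Bayes with trend and robust, two-sided tests, and Benjamini-Hochberg adjustment over all genes tested. Genes were called at an adjusted p under 0.05. The 12 comparisons were LPS in each strain, pairs of strains in each condition, and differences of LPS responses. The fit was tested on simulated data. Coordinates are GENCODE M21 on mm10, promoters RefSeq on GRCm38.p6.

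The members and lists were chosen with earlier results of these data known. All 33 members are accounted for; full values go to at most the 3 largest called changes per comparison and class, and to a few others picked with their values known (Hmgcs1, Pmvk, Sqle in B6 and C57, and Acaca), and at most 4 called genes per comparison are named from each other list. The main fit held no term for the mouse. In the replicate block, strain comparisons took the replicate number as the block, and LPS comparisons the mouse. Libraries of one strain and number were taken there as 1 mouse, since the design text gives cultures from individual mice. After removal of group means, the 12 such pairs correlated with r of 0.0513 to 0.176, own partner best in 10. Other settings tried were no filter, a filter of 5 TPM, a pseudocount of 0.1 TPM, median-of-ratios and quantile scaling, TPM without structural RNA, empirical Bayes without trend and robust, only the groups compared, the replicate block, only numbers 1 and 2 or 3 and 4, and each library left out.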

Additional observations from a re-analysis of the deposited data

Results flagged for a closer look

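In 9 of 210 sets of 4 libraries, 1 library stood far from the other 3 of its group; chance flags about 1 in 20 such sets. In PWD_Untreated, replicate 4 was high for Mvd (76.3 TPM, others 62.1 to 63.8), Fdft1 (27.5 TPM, others 21.7 to 22.4) and Msmo1 (68.6 TPM, others 55.3 to 57.2). In B6_LPS, replicate 2 was low for Scd1 (2.59 TPM, others 3.26 to 3.40) and Fads1 (2.10 TPM, others 2.71 to 2.84). In C57, Acat2 was low in C57_LPS replicate 2 (4.36 TPM, others 5.35 to 5.52), Scd2 was high in C57_LPS replicate 3 (15.4 TPM, others 10.5 to 11.1), Hmgcs1 was high in C57_Untreated replicate 3 (60.9 TPM, others 54.1 to 54.5) and Fads1 was high in C57_Untreated replicate 1 (28.7 TPM, others 25.6 to 25.9).

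Of 99 differences of LPS responses between strains, 38 were called in limma. In PWD minus B6 the sterol values were Acat2 -0.66, Hmgcs1 -0.91, Pmvk -0.94, Idi1 -1.99, Fdft1 -0.87, Sqle -0.64, Lss -0.67, Msmo1 -0.84, Hsd17b7 -0.79, Sc5d -0.49 and Insig1 -0.73, and the fatty acid values Srebf1 0.47, Scd2 0.82, Fads1 1.53 and Elovl1 0.40. The call of Lss was lost without any of B6_LPS 2 or 3, B6_Untreated 1 or 2, PWD_LPS 2 or 3 or PWD_Untreated 1 (-0.58 to -0.64), and that of Srebf1 without B6_LPS 1, B6_Untreated 1, PWD_LPS 1 or PWD_LPS 2 (0.41 to 0.43).

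In PWD minus C57 the sterol values were Acat2 -0.93, Hmgcs1 -1.18, Idi1 -1.11, Fdps -0.56, Fdft1 -0.98, Sqle -0.90, Cyp51 -0.84, Msmo1 -0.94, Nsdhl -0.58, Hsd17b7 -0.75, Dhcr7 -0.52 and Insig1 -0.51, and the fatty acid values Fasn -0.59, Scd1 -0.67 and Fads1 0.88. Calls were lost without one of 8 libraries for Dhcr7 (C57_LPS 3, C57_Untreated 2, 3 and 4, PWD_LPS 3 and 4, PWD_Untreated 2 and 4, -0.42 to -0.51), of 8 for Fdps (C57_LPS 3 and 4, C57_Untreated 2 and 3, PWD_LPS 1, 3 and 4, PWD_Untreated 4, -0.46 to -0.56) and of 9 for Scd1 (C57_LPS 3 and 4, C57_Untreated 1, 3 and 4, PWD_LPS 1 and 3, PWD_Untreated 1 and 4, -0.51 to -0.68).

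In C57 minus B6 the sterol values were Pmvk -0.57, Mvd 0.62 and Idi1 -0.88, and the fatty acid values Srebf1 0.69, Fasn 0.78, Scd1 0.67, Scd2 0.98 and Fads1 0.65. The call of Scd1 was lost without B6_LPS 2, B6_Untreated 1, C57_LPS 3 or 4 or C57_Untreated 1 or 3 (0.52 to 0.66).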

How the results depend on the processing

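Over 396 member differences (273 called) and 11 alternatives, 4050 of 4344 values kept their direction and their side of the threshold, and 160 lost and 111 gained a call. Another 23 changed sign, among differences called in the main fit, under the alternative or in both. Values called under neither setting count as kept whatever their sign. Leaving out each of the 24 libraries kept 9357 of 9504 values, lost 119 calls, gained 28 and reversed none. Depth is unknown, so counting error of genes near 1 TPM, such as Dhcr7 in B6_LPS, cannot be given. The cause of the changes below was not tested.

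With median-of-ratios scaling the reversed values were Acly 0.029 with LPS in B6 and Idi1 0.076 in C57. For C57 against B6 after LPS they were Hmgcs1 -0.0069, Cyp51 -0.014, Msmo1 -0.076, Srebf2 -0.30, Scap -0.21 and Elovl1 -0.0012. For PWD against B6 after LPS they were Sc5d -0.053, Insig1 -0.28 and Acly -0.20. With quantile normalization they were, for C57 against B6 after LPS, Cyp51 -0.066, Msmo1 -0.054, Nsdhl -0.051, Hsd17b7 -0.027, Srebf2 -0.11 and Scap -0.26, and for PWD against B6 after LPS Fdft1 -0.085, Lss -0.42, Cyp51 -0.031, Sc5d -0.11 and Insig1 -0.21. A pseudocount of 0.1 TPM turned the response of Dhcr7 in PWD minus B6 to 0.76.

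Of 840 counts of called members, 811 were within 1.5 times the count reported. Higher sterol genes in untreated C57 against B6 went from 9 to 2 with median-of-ratios, 2 with quantile, and 2 in numbers 3 and 4 (3 to 10 with a library left out). After LPS they went from 14 to 4 with median-of-ratios, 2 with quantile and 5 in numbers 1 and 2. Higher fatty acid genes of PWD against C57 after LPS went from 7 to 4 in numbers 3 and 4. For the response of C57 minus B6, lower sterol genes went from 2 to 4 with quantile and 1 in numbers 3 and 4, and higher fatty acid genes from 5 to 9 without structural RNA and 3 in numbers 1 and 2. For PWD minus B6, lower sterol genes went from 11 to 6 and higher fatty acid genes from 4 to 1, both in numbers 3 and 4. For PWD minus C57, lower fatty acid genes went from 2 to 1 with a pseudocount of 0.1 TPM, 1 with no filter, 1 with only the groups compared, 4 with quantile, 0 in numbers 1 and 2 and 5 in numbers 3 and 4 (1 to 2 with a library left out).

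With median-of-ratios scaling the log2 changes of the sterol and fatty acid sums with LPS were -0.20 and -0.62 in B6, -0.48 and -0.55 in C57 and -1.12 and -0.64 in PWD. Without Idi1, a choice made after seeing the data, the sterol sum changed by -1.05 in B6. Taken as means of log2(TPM + 1) they were -0.99 and -1.47 in B6 and -1.17 for fatty acid genes in PWD. The replicate block moved 2 calls, both in untreated PWD against B6: Tm7sf2 was lost (limma adjusted p = 0.0507) and Ebp gained (0.0439), so higher sterol genes went from 18 to 19.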

Other observations

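Genes that feed the same lipid pools from elsewhere also moved with LPS. Of 4 tested acyl-CoA synthetases of 5 listed, which activate fatty acids for use, 1 rose and 1 fell in each strain, where 11.9% of all genes rose and 59.7% fell in B6, 10.4% and 52.2% in C57, and 11.1% and 52.4% in PWD. Acsl1 rose by 2.27 in B6, 1.64 in C57 and 2.19 in PWD on the log2 scale, from 61.6 to 301 TPM, 106 to 336 TPM and 129 to 593 TPM (group means, n = 4), while Acsl3 fell by 1.41, 1.03 and 1.59.

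Of 3 genes that release cholesterol from lysosomes, 2 fell and 1 rose in B6 and in C57, and 3 fell in PWD, against the same shares of all genes. The acid lipase gene Lipa fell by 0.96, 0.61 and 0.89 in B6, C57 and PWD, and the membrane transporter Npc1 by 0.90, 0.72 and 0.53. The soluble carrier Npc2 rose by 0.59 in B6 and 0.17 in C57 and fell by 0.27 in PWD, a direction not checked under another scaling, and its response differed by -0.86 between PWD and B6. Values are on the TPM scale, where the median of all genes was -0.43, -0.32 and -0.32 with LPS.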
